A study of Mus musculus with 12 samples.

Results

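Ceramide and the sphingolipids built from it are made and converted by a short series of enzymes, and 10 genes for these enzymes were followed here in mouse macrophages: Sptlc1, Sptlc2, Cers2, Cers4, Cers5, Cers6, Degs1, Sgms1, Ugcg and Sphk1. They were found by gene symbol among the 55401 genes of the deposited table, and all 10 were present. The 10 genes were selected on their place in the pathway with results of these same libraries already in view, among them the rank of Cers6 in an earlier test across the groups. Their levels and differences are therefore given as a description. Calls of the fit over all genes are listed for them beside the share of all genes called, and support no statement about the members.

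The cells were bone-marrow-derived macrophages (BMDMs) from C57BL/6J mice of the genotype Irx3-/-, in which the gene for the transcription factor IRX3 is disrupted. The precursors were cultured with 20 nM M-CSF for 7 days, and the cells were infected with an adeno-associated virus (AAV) carrying 1 of 4 constructs. These were GFP as control, wild-type IRX3 (IRX3_WT), or IRX3 with the serine-to-alanine substitution S361A (IRX3_S361A) or S389A (IRX3_S389A). Every group also received 100 ng/ml LPS for 4 h before RNA was collected, so no group was without LPS and the control lacked IRX3. Each group had 3 libraries made from total RNA. The labels do not say whether the 3 came from separate mice or cultures, so the spread between them may be technical, and they give neither age nor sex.

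Sphingolipid synthesis starts in the endoplasmic reticulum, where serine palmitoyltransferase joins serine to palmitoyl-CoA. Ceramide synthases then add a fatty acid whose length depends on the synthase, and a desaturase turns dihydroceramide into ceramide, which is passed on to sphingomyelin, glucosylceramide, ceramide 1-phosphate or, after breakdown, sphingosine 1-phosphate. In macrophages, LPS acting through TLR4 is known to raise ceramide synthesis, and sphingolipids shape membrane signalling and cell traffic.

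Values are the authors' read counts per gene divided by 1 scaling factor per library, called normalized counts below. The libraries held 17149058 to 20108002 reads over genes, and 3 reads corresponded to 2.67 to 3.41 normalized counts. Irx3, the overexpressed gene, was at 0 in all 3 GFP libraries, where 0 reads allow up to 2.67 to 2.78 normalized counts. It stood at 177.1 ± 16.3 (SD, n = 3) with IRX3_WT, 348.5 ± 21.5 (SD, n = 3) with IRX3_S361A and 187.4 ± 20.2 (SD, n = 3) with IRX3_S389A. The IRX3_S361A substitution and the higher Irx3 transcript level of that group therefore cannot be told apart below. All 8 macrophage markers examined passed the filter on low values, with summed levels of 359792 to 370143 in GFP, 389296 to 393725 in IRX3_WT, 416752 to 429929 in IRX3_S361A and 393368 to 406993 in IRX3_S389A. Lyz2 made up most of each sum, with means of 212297, 211120, 251113 and 230230 in the same order. The 8 did not move together. For IRX3_WT against GFP, Mertk (log2 difference 0.66), Cd14 (0.44) and Adgre1 (0.25) were called higher and Fcgr1 (-0.19) lower. Csf1r, Cd68, Itgam and Lyz2 were not called there. Of 6 neutrophil markers, Ly6g, Elane and Mpo were at 0 in every library, Ltf and Ngp did not pass the filter, and Camp passed it at 10.1 to 34.3 normalized counts, for a summed level of 12.9 to 22.3 in GFP and 15.8 to 35.3 in IRX3_WT. None of 6 lymphocyte markers passed. Of 5 dendritic cell markers 2 passed, with sums of 115.1 to 142.7 in GFP, 139.8 to 156.8 in IRX3_WT, 129.2 to 144.7 in IRX3_S361A and 131.9 to 174.6 in IRX3_S389A, mostly Xcr1. The summed stromal markers moved with the groups, at 84.7 to 120 in GFP, 238 to 251 in IRX3_WT, 127 to 190 in IRX3_S361A and 199 to 211 in IRX3_S389A. Most of that sum was Pdgfrb. Other stromal markers were scarce and did not follow it. Col1a2 had means of 8.25 in GFP, 6.29 in IRX3_WT, 12.7 in IRX3_S361A and 14.6 in IRX3_S389A. Dcn had means of 1.22, 3.06, 6.66 and 8.17 in the same order and was called higher with IRX3_S389A than with GFP. It reached 10 normalized counts only in IRX3_S361A replicate 2 (11.9) and IRX3_S389A replicates 1 (10.3) and 3 (10.2). Dcn thus entered the test only through groups where it was high, and nothing is read from that call. Of 4 endothelial markers 3 passed, with sums of 1024 to 1122 in GFP, 982 to 1232 in IRX3_WT, 1066 to 1234 in IRX3_S361A and 1456 to 1570 in IRX3_S389A, mostly Kdr. The part of these markers in the results was not tested. In bulk RNA, fewer cells of a type and less RNA per cell cannot be told apart.

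Cers6, a ceramide synthase that prefers palmitoyl-CoA, differed most between IRX3_WT and GFP among the 10 genes (Ensembl ENSMUSG00000027035.10, GRCm38 chr2:68861441-69114282, plus strand). Its normalized counts were 8273, 8435 and 8104 in the GFP libraries and 18227, 16714 and 16982 in the IRX3_WT libraries. They were 11862, 12009 and 11458 with IRX3_S361A and 14332, 14731 and 14889 with IRX3_S389A. No library of any group fell within the range of another group, and the order was GFP, IRX3_S361A, IRX3_S389A, IRX3_WT. The IRX3_WT mean was 2.09-fold the GFP mean, a log2 difference of 1.06 (SE 0.03, 95% interval 0.99 to 1.14). The IRX3_S361A level lay below IRX3_WT by a log2 difference of -0.55 (95% interval -0.63 to -0.48), and the IRX3_S389A level by -0.24 (95% interval -0.31 to -0.17). Against GFP the 2 substituted forms stood at 0.51 and 0.82 on the log2 scale. IRX3_S389A exceeded IRX3_S361A by 0.32 (95% interval 0.24 to 0.39). Cers6 was an abundant transcript by counts not divided by gene length. Its mean over the 12 libraries was higher than that of 98.5% of the 13369 genes tested.

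**Figure D1:**
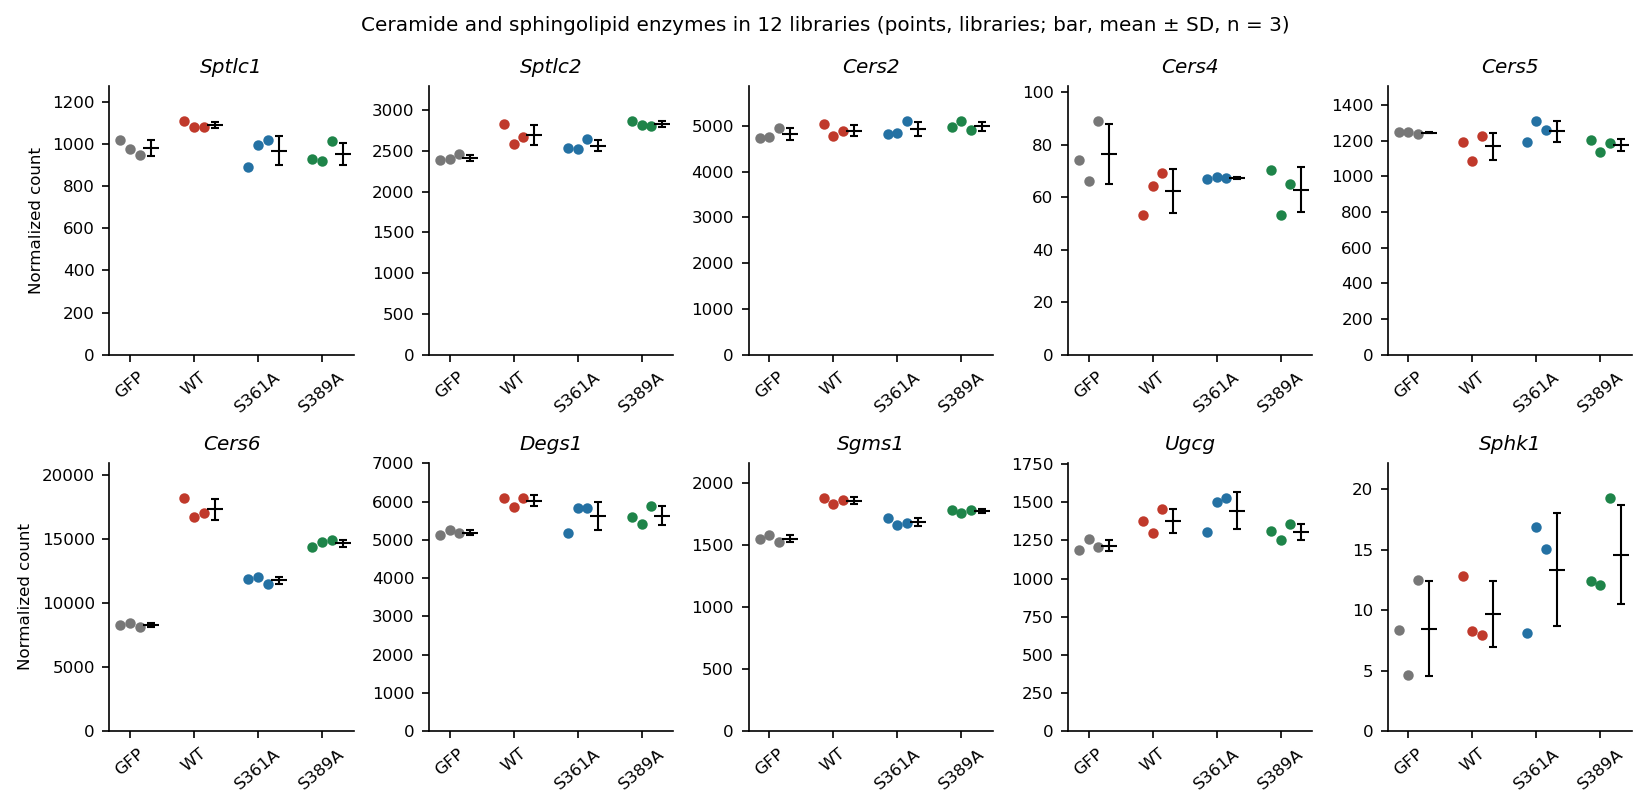
Normalized counts (vertical axes, linear and starting at 0, a separate scale for each gene) of the 10 enzymes in each library of the 4 groups (horizontal axes; WT, S361A and S389A are the IRX3 constructs). Points are single libraries and black bars the mean ± SD of 3. Cers6 separates all 4 groups, from 8104 to 8435 in GFP to 16714 to 18227 in IRX3_WT, while Cers2 stays between 4736 and 5106 throughout.

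Sgms1 encodes the Golgi sphingomyelin synthase, which transfers phosphocholine to ceramide (ENSMUSG00000040451.18, chr19:32122727-32389714, minus strand). It followed the same group order as Cers6 over a much smaller range. The GFP libraries held 1551, 1581 and 1521 normalized counts, the IRX3_S361A libraries 1721, 1659 and 1676, the IRX3_S389A libraries 1783, 1757 and 1780, and the IRX3_WT libraries 1883, 1829 and 1860. Again no library lay within another group's range. The log2 difference between IRX3_WT and GFP was 0.26 (95% interval 0.17 to 0.35). Between IRX3_S361A and IRX3_WT it was -0.14 (95% interval -0.23 to -0.05), and between IRX3_S389A and IRX3_WT it was -0.07 (95% interval -0.16 to 0.03). Across the 12 libraries, which form only 4 groups, Pearson's r between log2 levels of Sgms1 and Cers6 was 0.99. Degs1 and Sptlc2 followed with r of 0.81 and 0.82 to Cers6, and Cers4 and Cers5 had r of -0.66 and -0.56. These coefficients describe group differences more than independent points.

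Upstream windows of these 2 genes are shown because their levels ran most closely together among the members. Of the 4 Sgms1 windows in RefSeq, the one with a motif match is printed, and the other 3, those at the starts of the long transcripts among them, held none of the motifs searched. Both are the 250 bases before a transcription start in RefSeq (GRCm38.p6), 5′ to 3′ on the gene's strand. That of Cers6 (chr2:68861191-68861440, plus strand) holds a CCAAT box and an E-box, CACGTG. That of a shorter Sgms1 transcript (chr19:32211014-32211263, minus strand) starts inside an intron of the longer transcripts and holds an AP-1 motif, TGANTCA, and a CCAAT box read on the other strand as ATTGG. Capitals mark these matches.
Cers6: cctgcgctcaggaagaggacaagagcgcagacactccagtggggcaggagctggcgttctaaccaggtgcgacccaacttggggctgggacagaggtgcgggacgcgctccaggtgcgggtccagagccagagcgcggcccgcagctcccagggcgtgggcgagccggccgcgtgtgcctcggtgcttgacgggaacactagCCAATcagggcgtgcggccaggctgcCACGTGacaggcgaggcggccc
Sgms1: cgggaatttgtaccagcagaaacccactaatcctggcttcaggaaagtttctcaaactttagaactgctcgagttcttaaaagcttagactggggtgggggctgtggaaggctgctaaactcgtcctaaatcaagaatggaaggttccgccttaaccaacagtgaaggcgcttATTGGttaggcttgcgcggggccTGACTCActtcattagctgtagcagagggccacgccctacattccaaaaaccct
RefSeq held 18 upstream windows for the 10 genes, searched on both strands beside 32851 windows of 27025 genes. CACGTG occurred in 5 of the 18 windows (Cers2, Cers6, Degs1 and Sphk1) and in 6.02% of all windows, CCAAT in 7 of 18 and 33.9%, and TGANTCA in 3 of 18 (Sgms1 and Sphk1) and 6.75%. The kappaB motif was found in 1 of 18 windows, that of Degs1, and in 3.90% of all. The palindromic Iroquois motif ACANNTGT was found in 0 of 18 and in 6.31% of all. CACGTG and CCAAT were added to the search after the windows had been read, several windows of a gene overlap, and a match or its absence describes these letters alone.

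The genes of the first step are Sptlc1 and Sptlc2, the subunits of serine palmitoyltransferase. Sptlc1 stood at 1021, 977.9 and 948.4 normalized counts in GFP and at 1110, 1083 and 1082 in IRX3_WT. It stood at 891.8, 995.9 and 1020 in IRX3_S361A and at 928.7, 919 and 1015 in IRX3_S389A. The IRX3_WT libraries were thus above all others, and the other 3 groups overlapped. Its log2 difference was 0.15 (95% interval 0.03 to 0.27) for IRX3_WT against GFP, -0.17 for IRX3_S361A against IRX3_WT and -0.20 for IRX3_S389A against IRX3_WT. Sptlc2 was at 2386, 2400 and 2456 in GFP, 2824, 2587 and 2674 in IRX3_WT, 2540, 2517 and 2640 in IRX3_S361A and 2866, 2816 and 2800 in IRX3_S389A. Here IRX3_S389A, not IRX3_WT, had the highest mean, at 0.23 above GFP on the log2 scale (95% interval 0.14 to 0.31). The ranges of IRX3_WT and IRX3_S389A overlapped. The ratio of Sptlc2 to Sptlc1 within a library, which does not depend on library scaling, was 1.297 ± 0.074 (log2, SD, n = 3) in GFP and 1.302 ± 0.046 in IRX3_WT. It was 1.405 ± 0.091 in IRX3_S361A and 1.567 ± 0.091 in IRX3_S389A.

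The other ceramide synthases did not share the Cers6 pattern. Cers2, which makes very-long-chain ceramides, ranged only from 4736 to 5106 over the 12 libraries, and its log2 difference between IRX3_WT and GFP was 0.02 (95% interval -0.05 to 0.10). Cers5, which like Cers6 prefers palmitoyl-CoA, was at 1247, 1250 and 1240 in GFP and at 1192, 1085 and 1227 in IRX3_WT, a log2 difference of -0.09 (95% interval -0.21 to 0.02). The 3 IRX3_WT libraries lay below the 3 GFP libraries, while IRX3_S361A, at 1193, 1310 and 1258, overlapped both groups. Cers4 was the scarcest synthase of the 4, at 53.2 to 89.1 normalized counts in all libraries, with overlapping groups. As 8.97% of its exon bases and 5.96% of those of Cers2 are overlapped by other genes and the strand setting of the counting is not given in the sources used here, some of their reads could belong to those neighbours.

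Per kilobase (kb) of exon, the leading synthase transcript was Cers2 in GFP and Cers6 in IRX3_WT. Of the summed normalized counts per kb of Cers2, Cers4, Cers5 and Cers6, Cers6 made up 35.8% ± 0.88 (SD, n = 3) in GFP, 53.9% ± 0.64 in IRX3_WT, 43.8% ± 1.20 in IRX3_S361A and 49.3% ± 0.67 in IRX3_S389A. Cers2 made up 50.4% ± 0.98 in GFP, 36.9% ± 0.41 in IRX3_WT, 44.3% ± 1.25 in IRX3_S361A and 40.6% ± 0.71 in IRX3_S389A. In the IRX3_S361A group the shares of the pair were nearly level. Cers5 made up 13.5% in GFP, 9.12% in IRX3_WT, 11.7% in IRX3_S361A and 9.92% in IRX3_S389A, and Cers4 never passed 0.277%. These shares are free of the scaling between libraries, but they rest on exon lengths summed over all annotated transcripts of each gene. The log2 ratio of Cers6 to Cers5, the synthases with the same preferred fatty acid, went from 2.73 ± 0.02 in GFP to 3.89 ± 0.09 in IRX3_WT, with 3.23 ± 0.07 in IRX3_S361A and 3.64 ± 0.06 in IRX3_S389A (SD, n = 3).

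**Figure D2:**
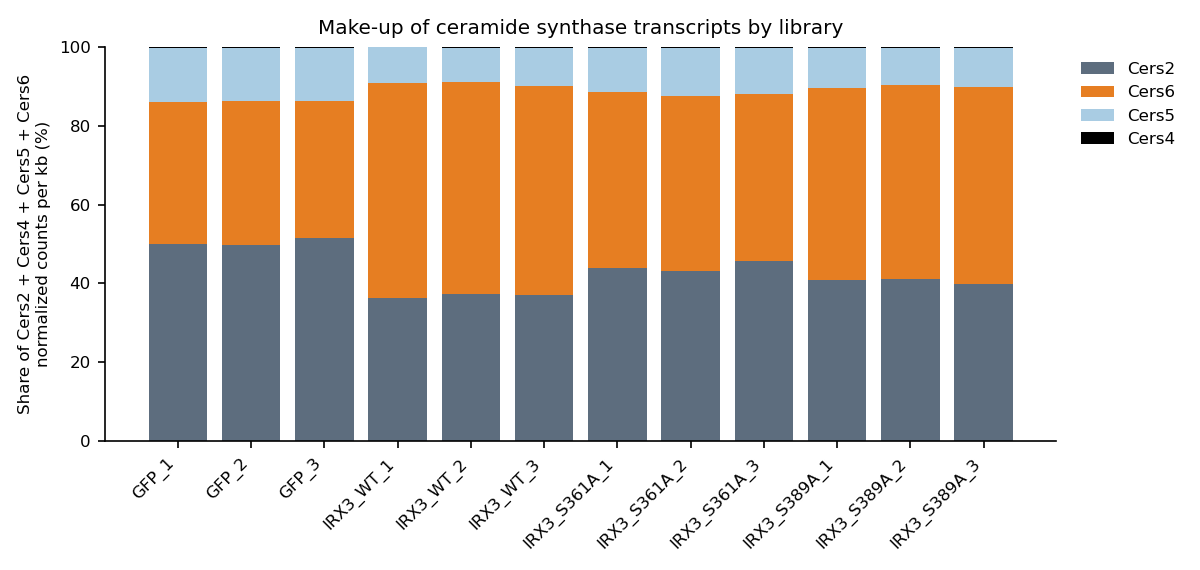
Share of each ceramide synthase in the summed normalized counts per kb of Cers2, Cers4, Cers5 and Cers6 (vertical axis, percent) for each of the 12 libraries (horizontal axis). Stacked bars show 1 library each; Cers6 takes 34.8% to 36.5% in GFP libraries and 53.3% to 54.6% in IRX3_WT libraries, and Cers4 is too scarce to be seen.

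Degs1, the desaturase that introduces the double bond of ceramide, was the most abundant of the 10 transcripts per kb, at a mean of 2169 normalized counts per kb against 1465 for Cers6, 1335 for Cers2 and 2.41 for Sphk1. Its libraries held 5141, 5255 and 5178 normalized counts in GFP and 6109, 5866 and 6107 in IRX3_WT, a log2 difference of 0.22 (95% interval 0.13 to 0.30) with no overlap. IRX3_S361A spread widely, at 5194, 5845 and 5839, and its replicate 1 lay within the GFP range. IRX3_S389A held 5589, 5417 and 5895. Against IRX3_WT the log2 differences of the substituted forms were -0.10 each.

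Ugcg, which makes glucosylceramide, the root of most glycosphingolipids, was at 1185, 1258 and 1205 in GFP and at 1376, 1297 and 1455 in IRX3_WT (log2 difference 0.18, 95% interval 0.06 to 0.29). It was at 1307, 1500 and 1531 in IRX3_S361A, 0.25 above GFP on the log2 scale, with replicate 1 below the other two. In edgeR on the 9 libraries with a scaling factor clear of 1, where IRX3_S361A is represented by replicate 1 alone, Ugcg was not called for IRX3_S361A against GFP (0.09) and stood at -0.076 against IRX3_WT. IRX3_S389A, at 1310, 1252 and 1358, overlapped GFP. The log2 ratio of Sgms1 to Ugcg, the branches towards sphingomyelin and glucosylceramide, was 0.35 ± 0.03 in GFP, 0.43 ± 0.07 in IRX3_WT, 0.22 ± 0.15 in IRX3_S361A and 0.44 ± 0.05 in IRX3_S389A (SD, n = 3). The IRX3_S361A spread came from replicate 1, at 0.397 against 0.145 and 0.130 in the other two.

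Sphk1, a kinase that makes sphingosine 1-phosphate, was close to the lower limit of what was tested. Its libraries ranged from 4.60 to 19.3 normalized counts, it reached 10 in 7 of 12 libraries, and every pair of groups overlapped. The log2 difference between IRX3_WT and GFP was 0.24 (95% interval -0.65 to 1.12), too wide to place any difference between the groups at this depth. Sphk2, outside the 10 enzymes and named after its values were seen, makes the same lipid. Its means were 1440 in GFP, 1425 in IRX3_WT, 1571 in IRX3_S361A and 1440 in IRX3_S389A. Other genes overlap 21.9% of its exon bases, so some of its reads could belong to them.

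Of the 10 enzymes, 6 were called higher with IRX3_WT than with GFP (Sptlc1, Sptlc2, Cers6, Degs1, Ugcg and Sgms1) and 0 lower, where 21.0% of all 13369 genes tested were called higher and 18.6% lower. A call means a Benjamini-Hochberg adjusted p under 0.05 from limma over all genes tested. Their median log2 difference was 0.17, and that of all genes tested was -0.01. For IRX3_S361A against IRX3_WT, 0 enzymes were called higher and 3 lower (Sptlc1, Cers6 and Sgms1), where 6.43% of all genes were called higher and 9.07% lower. For IRX3_S389A against IRX3_WT, 0 were called higher and 2 lower (Sptlc1 and Cers6), against 8.21% and 7.08% of all genes. The last 2 comparisons share the IRX3_WT libraries with the first. Against GFP, IRX3_S361A had 4 enzymes called higher (Cers6, Degs1, Ugcg and Sgms1) and 0 lower, beside 14.9% and 10.9% of all genes. IRX3_S389A had 4 called higher (Sptlc2, Cers6, Degs1 and Sgms1) and 0 lower, beside 18.8% and 16.2%. IRX3_S389A against IRX3_S361A had 2 called higher (Sptlc2 and Cers6) and 0 lower, beside 7.00% and 3.16%. Since the genes were selected with these differences known, nothing is read from the counts.

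**Figure D3:**
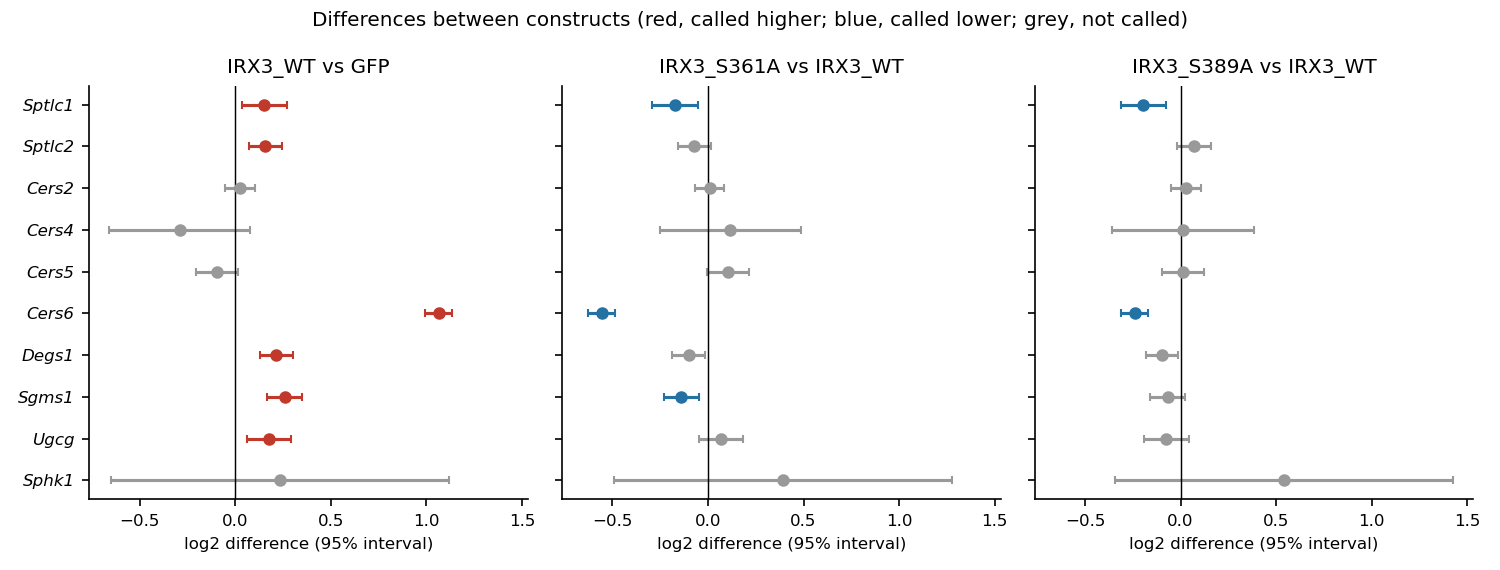
log2 difference with its 95% interval (horizontal axis) of each enzyme in 3 comparisons: IRX3_WT against GFP, IRX3_S361A against IRX3_WT and IRX3_S389A against IRX3_WT. Red marks genes called higher, blue genes called lower and grey the rest; Cers6 stands at 1.06, -0.55 and -0.24, while the other called enzymes stay within 0.26 of 0.

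Many of the smaller calls changed with the scaling between libraries, and those of Cers6 did not. The deposited totals were 17325311 to 17469765 in GFP and 19513613 to 19796325 in IRX3_WT. With libraries scaled to equal totals, the median of all genes moved by -0.18 for IRX3_WT against GFP, and the enzymes called were then 1 higher (Cers6, log2 difference 0.89) and 3 lower (Cers2, Cers4 and Cers5). For IRX3_S389A against GFP they were 1 higher (Cers6) and 4 lower (Sptlc1, Cers2, Cers4 and Cers5), for IRX3_S361A against GFP 1 higher (Cers6) and 0 lower, for IRX3_S361A against IRX3_WT 1 higher (Cers5) and 1 lower (Cers6), and for IRX3_S389A against IRX3_S361A 1 higher (Cers6) and 1 lower (Ugcg). For IRX3_S389A against IRX3_WT the calls were as before, 0 higher and 2 lower (Sptlc1 and Cers6). Measured from the median of all genes, Cers6 stood at 1.07 and Sgms1 at 0.27 in IRX3_WT against GFP. These distances are the same under both scalings by construction, since a scaling factor moves all genes of a library alike, and are no test of the scaling. Cers6 kept its direction and its call under all 21 alternatives in all 6 comparisons.

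Calls of the smaller differences also rested on single libraries. The ranges given here cover all 12 libraries left out in turn. For IRX3_WT against GFP, Sptlc1 was no longer called without GFP replicate 2 or 3 or without any 1 of the IRX3_WT libraries (log2 differences 0.13 to 0.18), and Ugcg was not called without GFP replicate 1 or IRX3_WT replicate 3 (0.14 to 0.22). For IRX3_S361A against IRX3_WT, Sptlc1 lost its call without any 1 IRX3_WT library or IRX3_S361A replicate 1 (-0.21 to -0.115). Sgms1 lost its call there without IRX3_WT replicate 1 or 3 or IRX3_S361A replicate 2 or 3 (-0.16 to -0.13). For IRX3_S389A against IRX3_WT, Sptlc1 lost its call without IRX3_WT replicate 1 or IRX3_S389A replicate 1 or 2 (-0.24 to -0.17). Against GFP, the Degs1 calls were lost for IRX3_S361A without any 1 GFP library or IRX3_S361A replicate 2 or 3 (0.085 to 0.17), and for IRX3_S389A without GFP replicate 1 or 3 or IRX3_S389A replicate 3 (0.084 to 0.145). The Sgms1 call for IRX3_S361A against GFP was lost without any 1 library of those 2 groups or IRX3_S389A replicate 1 or 2 (0.10 to 0.13). The Sptlc2 call for IRX3_S389A against IRX3_S361A was lost without replicate 1 or 2 of either group (0.13 to 0.16). Tests of the recovered reads with edgeR and with DESeq2 did not call Sptlc1 for IRX3_WT against GFP (0.136 and 0.152) or for IRX3_S361A against IRX3_WT (-0.168 and -0.171). edgeR also did not call Degs1 (0.103) or Sgms1 (0.106) for IRX3_S361A against GFP, or Degs1 for IRX3_S389A against GFP (0.10). Without a filter on low values, these Sptlc1 calls, the Sgms1 calls for IRX3_S361A against IRX3_WT and GFP and the Sptlc2 call for IRX3_S389A against IRX3_S361A were lost at the same log2 differences. Sptlc1 and Sgms1 were also not called for IRX3_S361A against IRX3_WT with only those 2 groups in the fit. edgeR on the 9 libraries did not call Sgms1 for IRX3_S361A against IRX3_WT (-0.112) or GFP (0.14), Sptlc1 for IRX3_S389A against IRX3_WT (-0.173), Degs1 for IRX3_S361A against GFP (-0.009) or Sptlc2 for IRX3_S389A against IRX3_S361A (0.153). For Degs1 it gave -0.216 for IRX3_S361A against IRX3_WT, where IRX3_S361A is replicate 1 alone and all 12 libraries gave -0.101.

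By Pearson's r of log2 levels over the 12 libraries, the genes most like Cers6 among the 13369 tested were Ccl5 (0.995), Malt1 (0.995), Jak2 (0.995), Sept11 (0.994) and Slc16a10 (0.993). The least alike were Mcm2 (-0.994) and Dab2 (-0.990). Ccl5, a chemokine, had group means of 8636 in GFP, 12918 in IRX3_S361A, 16996 in IRX3_S389A and 20637 in IRX3_WT, the group order of Cers6. Mcm2, a subunit of the replicative helicase, ran the other way, from 1403 in GFP to 874.6 in IRX3_WT. The 12 points form 4 groups and share their libraries, so likeness here means a like set of group levels.

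The rest of the pathway was read from 62 further sphingolipid genes, of which 49 passed the filter on low values. The other 13 were not tested, and Sptlc3, Ugt8a, Enpp7, Acer1 and S1pr3 were at 0 in every library. With IRX3_WT against GFP, 4 of the 49 rose and 14 fell (limma, adjusted p under 0.05 over all genes), with a median log2 difference of -0.09. Over all genes tested, 21.0% were called higher and 18.6% lower, the background for the counts by role below as well. With equal totals the same split was 4 higher and 33 lower.

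At the first step, 3 of 5 tested partners and regulators of serine palmitoyltransferase fell with IRX3_WT and 0 rose. Sptssa, the small activating subunit, went from 1054, 1085 and 1082 normalized counts in GFP to 723.6, 768.4 and 724.8 in IRX3_WT, a log2 difference of -0.54 (SE 0.06, limma adjusted p 8.9e-10). Kdsr, the reductase that acts next, fell by 0.73 on the log2 scale (means 145.6 and 88.95, limma adjusted p 0.00077), and Ormdl3, an inhibitor of the enzyme, fell by 0.32 (limma adjusted p 0.029). These 3 genes fell while the values of Sptlc1 and Sptlc2 lay above GFP. That side of the contrast depended on the scaling. With libraries scaled to equal totals, Sptlc1 stood at -0.024 and Sptlc2 at -0.019, and neither was called.

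Among the 11 tested genes for complex sphingolipids, ceramide phosphorylation and lipid transfer, 2 rose and 2 fell. Cerk, the ceramide kinase, stood at 1326, 1242 and 1382 in GFP and at 545.4, 523.4 and 570.1 in IRX3_WT, so that the ranges were far apart (log2 difference -1.27, SE 0.06, limma adjusted p 4.4e-19). Sgms2, the plasma-membrane sphingomyelin synthase, rose by 0.55 (means 168.2 and 247.1, limma adjusted p 4.8e-05). The lactosylceramide synthases went in opposite directions: B4galt5 rose by 0.28 and B4galt6 fell by 0.24, both named after their values were seen. Of 5 tested sphingomyelinases, Smpd3 fell, from 25.1, 18.4 and 19.6 in GFP to 3.94, 3.12 and 6.83 in IRX3_WT, levels close to those of 3 reads (limma adjusted p 0.00076). Among 12 genes of glycosphingolipid breakdown in the lysosome or outside it, 0 rose and 4 fell, namely Gba2, Galc, Gla and Gm2a, with log2 differences from -0.49 to -0.12 and named after their values were seen. Of 4 tested ceramidases, 1 rose, Asah2, by 0.46.

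Of the 11 tested genes for sphingosine 1-phosphate, 1 rose and 4 fell with IRX3_WT. S1pr1, a receptor that guides cell egress and migration, had the largest difference of the 49 genes, from 233.9, 291.9 and 248.4 in GFP to 61.0, 46.7 and 46.7 in IRX3_WT (log2 difference -2.31, SE 0.16, limma adjusted p 9.9e-15). Every IRX3 library, the substituted forms included, lay below 84 normalized counts. Sgpp1, a phosphatase that returns the lipid to sphingosine, fell by 0.56 (limma adjusted p 1.5e-08), and the receptor S1pr2 and the phosphatase Plpp2 fell by 0.40 and 0.28. Plpp3, a lipid phosphate phosphatase of the cell surface, rose from 251.5, 245.9 and 260 to 390.8, 460 and 508.6 (log2 difference 0.83, SE 0.09, limma adjusted p 2.9e-09).

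**Figure D4:**
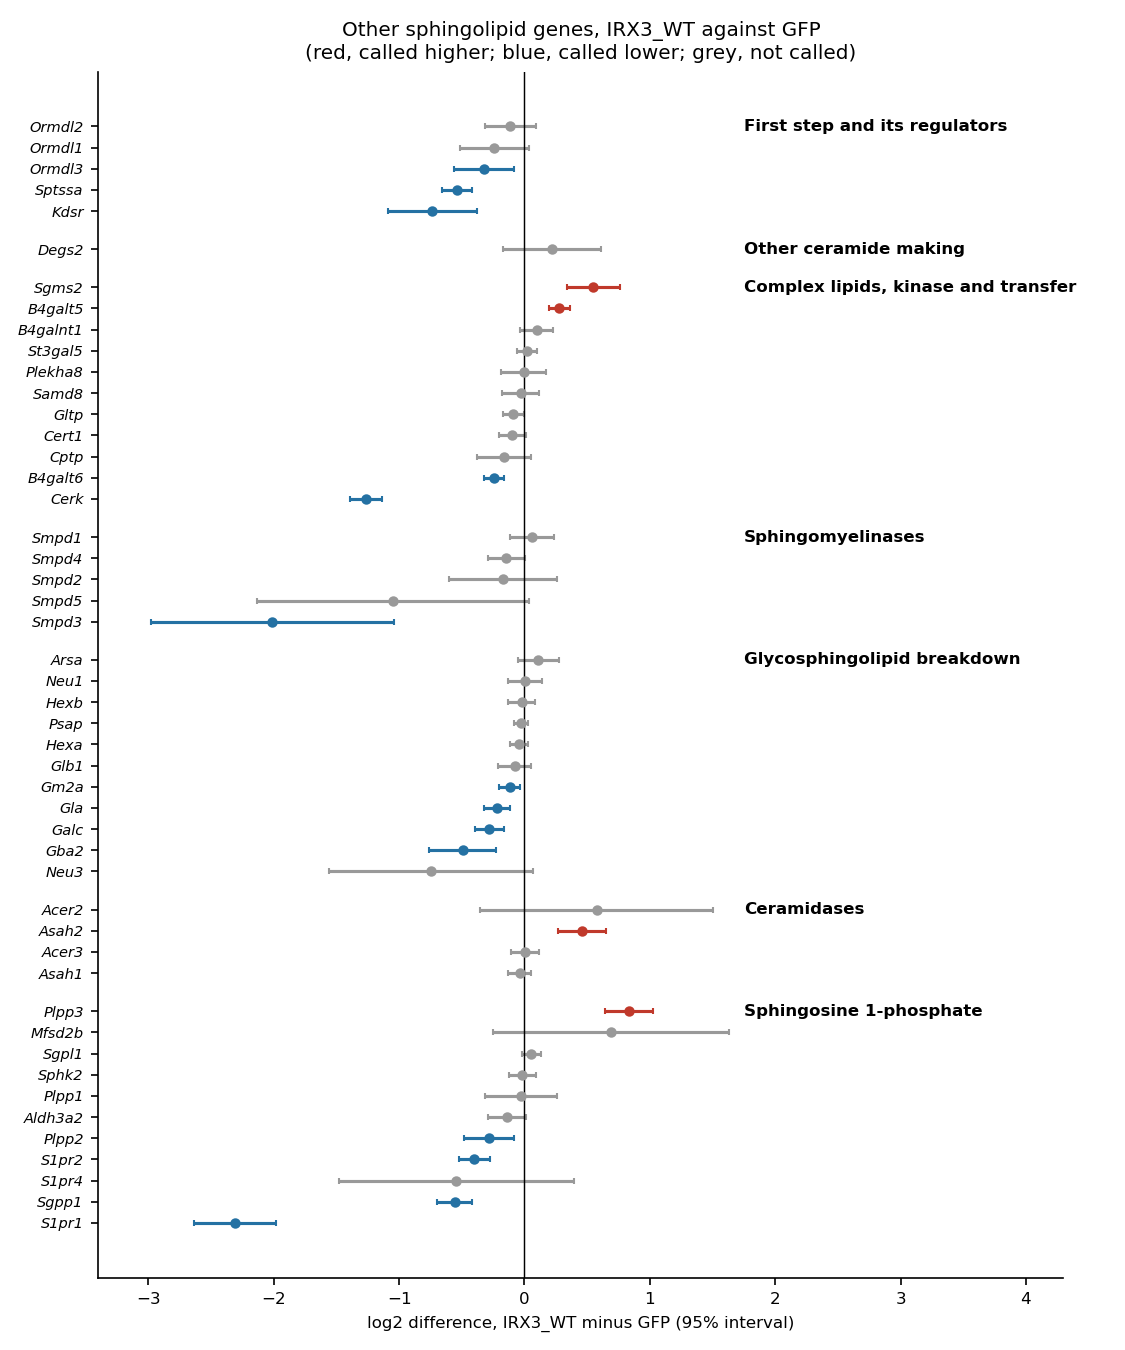
log2 difference between IRX3_WT and GFP with its 95% interval (horizontal axis) for the tested sphingolipid genes outside the 10 enzymes, grouped by role, with 1 gene that was not called left out of the plot. Red marks the 4 genes called higher, blue the 14 called lower and grey the rest; S1pr1 at -2.31, Smpd3 at -2.01 and Cerk at -1.27 lie farthest from 0.

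The comparisons of the substituted forms with IRX3_WT share the IRX3_WT libraries with the one above. For IRX3_S361A, 8 of 49 rose and 2 fell (17 and 2 with equal totals), with a median log2 difference of 0.06, where 6.43% of all genes were called higher and 9.07% lower. Cerk rose from a mean of 546.3 to 722.9 normalized counts (log2 difference 0.40, SE 0.06, limma adjusted p 9.0e-06), S1pr1 rose by 0.62 (limma adjusted p 0.0060), Ormdl3 by 0.48 and S1pr2 by 0.31. The lactosylceramide synthase B4galt6 rose by 0.19 and so did the lysosomal beta-galactosidase Glb1. Glb1 was not called without any 1 IRX3_WT library or without IRX3_S361A replicate 1 or 2 (0.15 to 0.25). Nor was it called with DESeq2 (0.195), without a filter on low values or with only the 2 groups compared (0.193 each). Plpp3 fell by 0.39 and St3gal5, the synthase of ganglioside GM3, by 0.24. With edgeR on the 9 libraries whose reads could be recovered with a scaling factor clear of 1, S1pr1 (0.47), Plpp3 (-0.31) and Glb1 (0.23) were not called.

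For IRX3_S389A against IRX3_WT, 12 of 49 rose and 1 fell, with a median log2 difference of 0.10, where 8.21% of all genes were called higher and 7.08% lower. This count dropped to 7 and 1 without IRX3_S389A replicate 1. Cerk reached a mean of 722.2 normalized counts, close to that of IRX3_S361A, and the same log2 difference of 0.40. S1pr2 rose by 0.52, from 811.2, 915.9 and 834.1 to 1254, 1256 and 1151 (limma adjusted p 4.7e-08). Of 12 glycosphingolipid breakdown genes, 5 rose and 0 fell. They included the GM2 activator Gm2a (0.31), the alpha-galactosidase Gla (0.28) and Psap, the precursor of the saposins (0.20, limma adjusted p 8.0e-07), whose libraries went from 52037 to 54075 in IRX3_WT to 60166 to 61307 in IRX3_S389A. B4galt6 rose by 0.26, Sgpp1 by 0.25 and Plpp2 by 0.30. The Plpp2 libraries overlapped between the groups, and its call was lost without IRX3_WT replicate 1 or 2 or IRX3_S389A replicate 1 or 2 (0.25 to 0.39). The Plpp2 call was also lost with DESeq2 (0.303), without a filter on low values and with only the 2 groups compared (0.298 each). That of Sgpp1 was lost without IRX3_WT replicate 1 (0.19), and edgeR on the 9 libraries called neither Plpp2 (0.255) nor Sgpp1 (0.23). The gene that fell was St3gal5, by 0.20.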

How the data were processed

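RNA of 12 libraries in 4 groups of 3 was sequenced by the submitters. Trimmomatic, HISAT2 2.1.0, StringTie 1.3.5 and mm10 are named in the submitters' processing notes, while the counter, the annotation and the strand setting are not given in those sources. The deposited table holds a signal per gene: within each library, 100% of values were whole multiples of 1 step (tolerance 1e-06), and the step times the library's median-of-ratios size factor was 1. The authors' values are thus counts divided by a size factor, and reads were recovered by dividing by the step. In 3 libraries the step lay within 1% of 1.

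Genes with at least 10 normalized counts in 3 libraries (13369) were tested on log2(value + 1) with limma 3.58.1 (R 4.3.3; trend and robust variance, all 12 libraries, 8 residual degrees of freedom), with Benjamini-Hochberg adjusted p under 0.05 as threshold. Fold changes are on that scale, which understates low genes. The function was tested on simulated data with few genes changed, up and down alike. That test does not bear on the scaling between libraries. Reads are not independent molecules, so limits at 0 cover counting error alone. Alternatives were equal totals, pseudocounts of 0.5 and 10, no filter, edgeR 4.0.16 and DESeq2 1.42.0 on recovered reads, only the groups compared, a replicate block, and leaving out each library. edgeR on the 9 libraries with a clear step was chosen after seeing the data.

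The 10 enzymes and all gene lists were chosen with earlier results of these data known. Of the pathway genes, 1 is counted but not reported here by name. Named pathway genes are up to 8 called genes with the largest differences in each of 3 comparisons, and for likeness to Cers6 the 5 highest and 2 lowest r among genes with ordinary symbols. Pathway genes named beyond these were picked after their values were seen, and those differences were not followed through the alternatives. They include Ormdl3, Asah2, S1pr2 and Plpp2 for IRX3_WT against GFP and St3gal5 for IRX3_S389A against IRX3_WT. Identifiers matched GENCODE M21 (GRCm38) for 99.5% of genes. Upstream sequences and their build are from RefSeq, and all 10 enzymes matched.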

Additional observations from a re-analysis of the deposited data

How the results depend on the processing

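With libraries scaled to equal totals, the pathway genes called numbered 37 for IRX3_WT against GFP (18 as reported), 19 for IRX3_S361A against IRX3_WT (10), 25 for IRX3_S361A against GFP (16), 28 for IRX3_S389A against GFP (16) and 4 for IRX3_S389A against IRX3_S361A (7), and the all-gene medians moved by -0.18, 0.06, -0.11, -0.17 and -0.06. Among enzyme values called under either scaling, Sptlc1 (-0.024), Sptlc2 (-0.019) and Cers2 (-0.153) changed sign in IRX3_WT against GFP. Cers2 (-0.118) and Degs1 (-0.052) did so in IRX3_S389A against GFP. With equal totals only the Cers2 values of these were called, and Cers2 was not called as reported. All genes called in IRX3_WT against GFP went from 2805 higher and 2483 lower to 1396 and 5523, in IRX3_S361A against IRX3_WT from 859 and 1212 to 1806 and 752, in IRX3_S361A against GFP from 1996 and 1461 to 1053 and 3233, in IRX3_S389A against GFP from 2516 and 2160 to 1334 and 5401, and in IRX3_S389A against IRX3_S361A from 936 and 423 to 596 and 1060.

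edgeR on 9 libraries, where IRX3_S361A keeps 1 library that is assumed to vary like the other groups, called 1222 genes for IRX3_S361A against IRX3_WT, 1347 for IRX3_S389A against IRX3_WT, 2110 for IRX3_S361A against GFP and 348 for IRX3_S389A against IRX3_S361A. As reported these were 2071, 2043, 3457 and 1359. It called 5, 7 and 0 pathway genes for IRX3_S361A against IRX3_WT, IRX3_S389A against IRX3_WT and IRX3_S389A against IRX3_S361A. What set these counts was not tested. Beside that 0, edgeR gave 9 pathway genes at an unadjusted p under 0.05, edgeR on all 12 libraries called 6 and DESeq2 5. It also reversed Degs1 in IRX3_S361A against GFP (-0.009). Without a filter, 3 pathway genes were called for IRX3_S389A against IRX3_S361A; the cause was not tested.

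Leaving out each library in turn, pathway calls ranged from 8 to 16 for IRX3_S389A against IRX3_WT (lowest without IRX3_S389A replicate 1), from 10 to 17 for IRX3_S361A against GFP (lowest without GFP replicate 1) and from 2 to 7 for IRX3_S389A against IRX3_S361A. In the last, IRX3_S361A replicate 3 gave 2, IRX3_S361A replicate 1 and IRX3_S389A replicates 1 and 2 gave 3, and IRX3_S389A replicate 3 gave 4. The remaining 3 comparisons stayed between 9 and 19.

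No pairing of the libraries by replicate number was seen: deviations from group means correlated at -0.041 to 0.03 within a number and -0.045 to 0.047 between numbers. Of 12 libraries, 4 correlated best with their own number. With 3 libraries a group, such correlations cannot exclude mice or cultures shared between groups. With a replicate block, 5241 genes were called for IRX3_WT against GFP (5288 without), and among the enzymes the block changed 1 call, that of Sgms1 in IRX3_S361A against GFP (log2 difference 0.120, limma adjusted p 0.056). Over the 60 enzyme differences and 1256 alternative values, 1171 kept their side of the threshold, and 34 differences did so throughout. Those that were called also kept their direction. A change of sign between values that were not called was not counted as a change.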

Other observations

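Between the substituted forms, which differ also in Irx3 level, 7 of the 49 tested pathway genes were higher with IRX3_S389A than with IRX3_S361A and 0 lower (2 and 2 with equal totals), where 7.00% of all genes tested were called higher and 3.16% lower. They were Plpp3, with means of 466 and 343.7 normalized counts (log2 difference 0.43, limma adjusted p 0.0016), Psap, with 60908 and 54025 (0.17, limma adjusted p 2.0e-05), S1pr2 (0.21), Gm2a (0.14), Sgms2 (0.31) and the ceramidases Acer3 (0.17) and Asah2 (0.29), named after their values were seen. This count fell to 2, 3 or 4 on leaving out single libraries, as given above.

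Against GFP, Cerk, S1pr1, Kdsr, Sptssa, Sgpp1 and Gba2 fell with IRX3_WT and with each substituted form. Cerk had a log2 difference of -0.86 with IRX3_S361A and -0.86 with IRX3_S389A, S1pr1 of -1.69 and -1.98, Kdsr of -0.83 and -0.82, Sptssa of -0.39 and -0.37, Sgpp1 of -0.37 and -0.31, and Gba2 of -0.43 and -0.49 (limma, adjusted p 0.013 or lower for each). These comparisons share the GFP libraries. Smpd3 fell with IRX3_S361A (-1.33) and had a log2 difference of -1.14 that was not called with IRX3_S389A, while IRX3_S389A against IRX3_S361A gave 0.19 (95% interval -0.78 to 1.16).

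Pdgfrb, a receptor listed as a stromal marker, had means of 84.6 normalized counts in GFP, 224.5 in IRX3_WT, 123.5 in IRX3_S361A and 167.3 in IRX3_S389A, the group order of Cers6. Kdr, listed as an endothelial marker, stood at 1050, 1091, 1093 and 1467 in the same order of groups. The other endothelial markers were scarce. Pecam1 had means of 12.4, 10.2, 16.7 and 12.5 and Cdh5 of 26.4, 27.1, 31.4 and 32.3. Neither was called for IRX3_S389A against IRX3_WT, and Tek did not pass the filter.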
